A study of Homo sapiens with 12 samples.

Results

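A gene can answer a repeated stimulus differently because it starts from another level, because it ends at another level, or both. The comparison described here asked, gene by gene over all 12 libraries, whether the log2 response of AC16 cells to a second interferon-α pulse differed from the response to the first, and read any difference against the group means so that a changed start was told apart from a changed end. AC16 is a human cell line described by its submitters as ventricular cardiomyocytes and labelled wild type. The 4 groups had 3 libraries each: vehicle (PBS, 24 h), acute (IFN-α2a at 1000 U/mL for 24 h), recovery (a 24 h pulse, then 5 days without cytokine) and repeat (a 24 h pulse, 4 days without cytokine and another 24 h pulse). The first response was acute against vehicle and the second was repeat against recovery. The start shift was recovery against vehicle, and the end shift was repeat against acute. No library was harvested when the second pulse began. Recovery cells had 5 days without cytokine and repeat cells 4 before that pulse, so recovery stands in for the start. Below, a start that was higher or lower means recovery against vehicle. The interaction, the second response minus the first, equals the end shift minus the start shift, so it uses the libraries of all 4 comparisons, whose values are set side by side here without a test of their overlap.

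Type I interferons bind the IFNAR1 and IFNAR2 receptor chains. The kinases JAK1 and TYK2 then phosphorylate STAT factors, which join IRF9 in a complex that binds interferon-stimulated response elements (ISREs) in promoters. The genes induced include the 2'-5' oligoadenylate synthetases (OAS genes), the MX GTPases and the IFIT RNA-binding proteins, while USP18 and SOCS1 restrain the receptor. The response is known to fade after the ligand is removed, and cells exposed before can answer again more weakly or more strongly.

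Several features of the groups limit the comparison. The start and the end shift each set a later harvest against an earlier one, so earlier interferon and days in culture cannot be told apart. The treatment text speaks of vehicle cells held for equivalent intervals, but the vehicle labels name 24 h only. The repeat regimen sums to 6 days, and its label gives day 7. An RPMI medium and DMEM/F-12 are both named as the culture medium. All libraries carry one batch label, and the series text calls the replicates independent. Totals were 39941319 to 62281900 estimated counts per library, and replicates of the repeat group differed most (2.53 to 2.98 times Poisson noise, against 1.78 to 2.14 in the other groups). Of 12 cardiomyocyte markers, 2 were tested, and their summed level was 1.04 to 2.24 TPM, with TNNT2 at 0 to 14 counts and MYH6 and MYH7 at 0 to 1. The 9 fibroblast markers summed to at least 1815 TPM in every library, of which COL1A1 gave 918 to 1472, COL3A1 249 to 456 and COL1A2 287 to 375. PDGFRA, LUM and POSTN were far lower, at 7.01 to 10.8, 10.2 to 25.3 and 14.1 to 26.4 TPM. The defining markers of the labelled cell type were thus near 0, and the fibroblast sum was high mainly through collagen genes. Smooth muscle and pericyte markers summed to 441 to 660 TPM, of which TAGLN gave 372 to 592. Endothelial markers summed to at most 5.4 TPM. The 8 leukocyte markers summed to 111 to 294 TPM, of which CD68 gave 110 to 293. Among them CD3E, MS4A1 and NKG7 were at 0 in every library.

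The promoters of 4 genes with a lower second response are shown first, searched for the element through which the interferon complex acts. They were the 4 called genes of smallest p with a RefSeq window, apart from OAS2, which had none. Each run holds the 250 bases before the start site (RefSeq, GRCh38.p14, plus strand, 5′ to 3′), and capitals mark matches to the ISRE core GAAANNGAAA on either strand.
OAS3, chr12:112938224-112938473: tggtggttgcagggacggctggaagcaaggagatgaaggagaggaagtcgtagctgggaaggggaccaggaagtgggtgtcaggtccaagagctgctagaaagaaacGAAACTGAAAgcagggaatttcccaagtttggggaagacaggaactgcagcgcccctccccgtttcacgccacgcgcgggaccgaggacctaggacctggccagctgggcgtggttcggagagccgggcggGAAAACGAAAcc
IFI44, chr1:78649581-78649830: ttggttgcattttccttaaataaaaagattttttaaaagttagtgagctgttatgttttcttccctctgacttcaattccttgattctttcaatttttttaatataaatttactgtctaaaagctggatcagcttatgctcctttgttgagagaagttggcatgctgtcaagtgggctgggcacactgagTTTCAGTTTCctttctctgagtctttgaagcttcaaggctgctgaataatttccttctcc
ISG15, chr1:1013247-1013496: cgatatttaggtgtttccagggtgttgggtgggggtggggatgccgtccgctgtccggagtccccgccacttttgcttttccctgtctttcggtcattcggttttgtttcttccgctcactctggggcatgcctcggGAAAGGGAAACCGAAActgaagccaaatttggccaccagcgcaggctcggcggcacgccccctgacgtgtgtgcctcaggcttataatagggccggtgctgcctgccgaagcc
IFIT1, chr10:89392373-89392622: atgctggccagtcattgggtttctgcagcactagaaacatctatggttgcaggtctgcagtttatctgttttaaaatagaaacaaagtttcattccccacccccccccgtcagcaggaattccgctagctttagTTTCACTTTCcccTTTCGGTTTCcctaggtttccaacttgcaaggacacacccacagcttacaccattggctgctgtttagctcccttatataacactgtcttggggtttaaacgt

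OAS3 held 2 matches, which began 143 and 12 bases before the start. IFI44 held 1 match at 60 bases, in 1 of its 2 windows. The 2 matches of ISG15, at 113 and 107 bases, overlapped, and those of IFIT1 lay at 116 and 103 bases. Over all 35116 windows of this length, 1061 (3.02%) held the ISRE core and 2306 (6.57%) held the GAS core TTCNNNGAA, another element of interferon-induced promoters. The shares that follow count genes, each holding the core if any of its windows did, so their unit differs from that of the share over windows. Among antiviral effector genes called lower for the interaction, 12 of 16 with a window (75.0%) held the ISRE core, and among those not called it was 21 of 37 (56.8%). Of all genes called lower, 16 of 58 (27.6%) held it, and of the genes called higher 0 of 28 did. The element was thus present in the promoters of antiviral genes with and without an interaction call. These are letter matches, described without a test.

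Few genes passed the test for a different response to the 2 pulses. Of 18119 genes tested with edgeR's quasi-likelihood test (Benjamini-Hochberg adjusted p under 0.05, called below), 118 had an interaction (0.651%), against 7938 called for the first pulse (43.8%) and 7546 for the second (41.6%). The second response was lower in 78 genes (0.43%) and higher in 40 (0.221%), on the signed log2 scale on which a weaker fall counts as higher. Differences were small: the median size over the 118 was 0.23 on the log2 scale, 99 were under 0.5, and 3 genes, OAS2, OAS1 and RSAD2, passed a test for a change beyond 1.5-fold (0.0166%). IL21R, a cytokine receptor at 0.636 to 2.72 CPM (counts per 1000000 counts of the library) as group means, was the 1 called gene of 7 with a size of at least 1 that was higher (1.31). It was picked out after its values were seen. An unadjusted p under 0.05 was reached by 1911 genes (10.5%). Across all genes the log2 responses to the first and second pulses correlated at r = 0.66, a description over genes, which are not independent replicates.

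**Figure D1:**
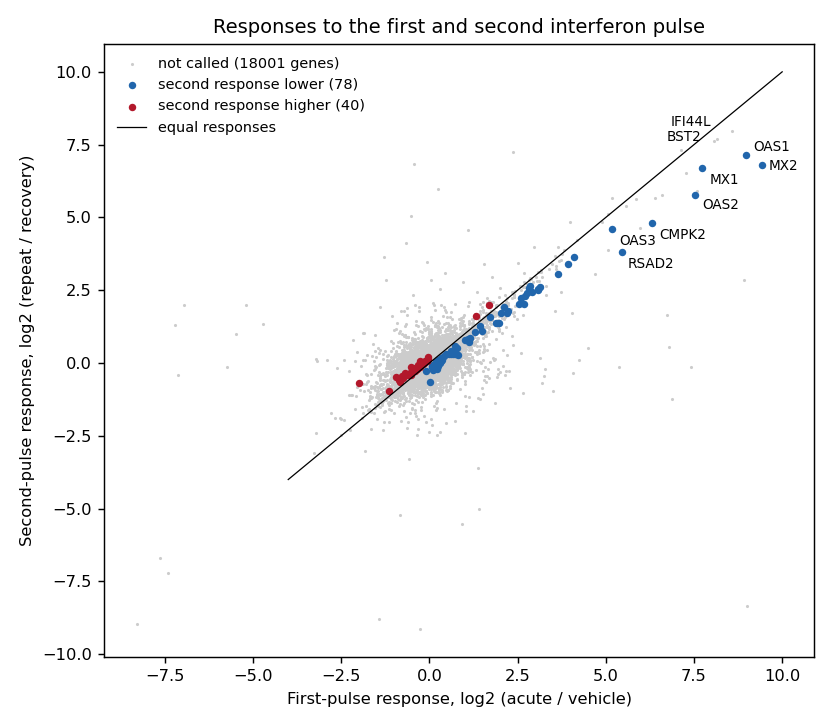
Each point is 1 of 18119 genes; the x axis is the first response and the y axis the second response, both fitted log2 ratios, and the line marks equal responses. The 78 genes called lower (blue) lie below the line, many at the upper right where antiviral genes sit, and the 40 called higher (red) lie above it, mostly among genes that fell; scattered grey points far from the line were at low levels.

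The number of calls changed when a library was left out, which also leaves fewer libraries in its group. Without repeat replicate 1 it was 323, 115 of them among the 118. Without vehicle 1, vehicle 2, acute 2, acute 3, recovery 1, recovery 2, recovery 3 or repeat 3 it was 68, 63, 65, 56, 65, 63, 57 and 66. Without vehicle 3, acute 1 or repeat 2 it was 129, 91 and 80. The sign of the interaction was the same for all 118 genes in each of those fits. Of the 54 named genes that were called, recovery 3, recovery 2 and vehicle 1 cost the most calls when left out (27, 26 and 25 genes). When limma was run on TPM (counts scaled for gene length and then to a sum of 1000000), or edgeR with an offset for the gene length implied by each library's counts and TPM, few genes were called: 3 on log2(TPM + 1), 5 on log2(TPM + 0.1) and 11 with the length offset, all lower. Of the 54 named genes called, 44 were called in none of these 3 fits. The 10 called in at least 1 were OAS2, ISG15, OASL, MX2, RIGI, IFI44, IFIT1, IFIT2, MX1 and RSAD2, so the interaction calls of the other named genes ended there. Some estimates also moved by over 1.5 times. They shrank to −0.34 to −0.32 for IFIT3, 0.11 to 0.13 for C1R, 0.15 to 0.18 for BHLHE40, 0.12 to 0.14 for HMGCS1, −0.12 to −0.10 for LTBP2 and −0.13 to −0.12 for ZZEF1. On log2(TPM + 1) alone HERC6 was at −0.39 and APOL6 at −0.19. They grew to −0.33 to −0.32 for MYRF, −0.40 to −0.38 for WNK4 and up to −0.52 for SH3RF2. TRANK1 was at 0.14 on log2(TPM + 1), 0.034 on log2(TPM + 0.1) and −0.05 with the length offset.

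The start shift was called in 1076 genes (5.94%) and the end shift in 761 (4.2%). Of the 118 interaction genes, 73 had a called start shift only, 19 a called end shift only, 20 both and 6 neither. In 95 the start shift was the larger of the pair by estimate and in 23 the end shift was. The genes with a lower second response had started higher in 62 of 78 cases and lower in 0; their ends were called higher in 16 and lower in 11. Those with a higher second response had started lower in 31 of 40 and higher in 0. The signs are tied by arithmetic, since the interaction subtracts the start shift. Most genes with a shifted start had no called interaction: 93 of the 1076 genes with a called start shift (8.64%) were called for the interaction. Of 283 genes whose start and end were both called in the same direction, 19 were called.

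**Figure D2:**
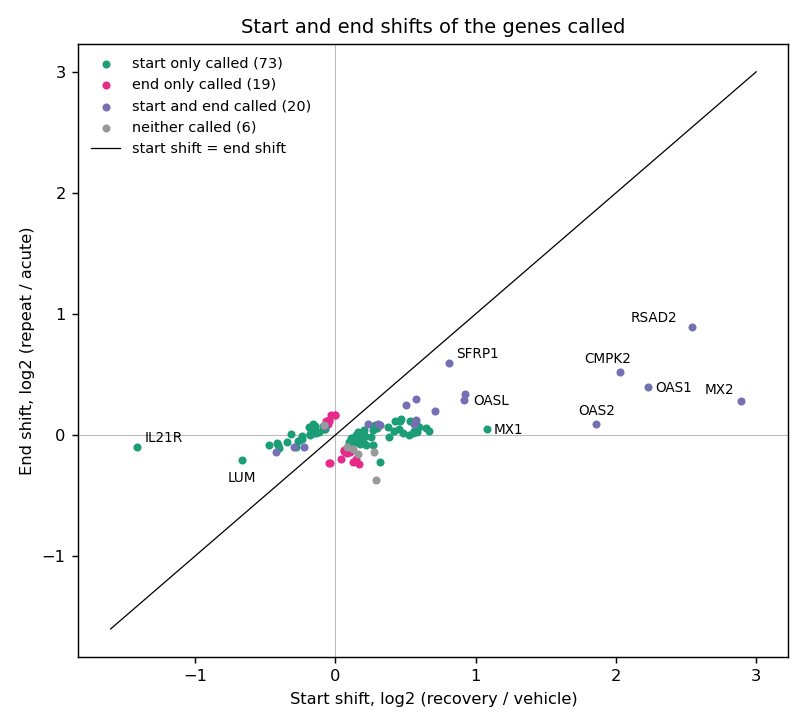
Start shift (x axis) and end shift (y axis), both fitted log2 ratios, of the 118 genes called for the interaction, coloured by which shift was called; the line marks equal shifts. Most points lie along the horizontal line at an end shift of 0, and RSAD2, CMPK2, OAS1, OASL and SFRP1 lie above it.

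Antiviral effectors, the proteins that degrade, trap or tag viral components, gave the most calls of any list. The list held 69 genes, all tested. Of these 22 (31.9%, against 0.43% of all genes) had a lower second response and 0 a higher one. The median interaction was −0.16 over the list and near 0 over all genes. All 69 rose in the first pulse (22.3% of all genes did) and 68 in the second (21.1%), with median log2 responses of 2.84 and 2.65. The start was called higher in 28 (3.03% of all genes) and lower in 0, and the end was called higher in 9 (1.77%) and lower in 4 (2.43%). The lists were chosen with earlier results of these data known.

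OAS2, a synthetase that makes the 2'-5' oligoadenylates that activate RNase L, was at 3.14, 3.10 and 3.23 CPM in vehicle, 587, 592 and 583 in acute, 11.05, 10.96 and 12.3 in recovery and 637, 620 and 620 in repeat. No 2 groups overlapped. Its log2 response went from 7.54 to 5.77, an interaction of −1.77 ± 0.065 (SE, n = 3 libraries per group; edgeR adjusted p = 1.40e-16). The start had risen by 1.86 and the end by 0.09 on the log2 scale. On log2(TPM + 1) the interaction was −0.91, still called. In CPM the gain was 584 in the first pulse and 614 in the second.

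OAS1, a second synthetase, was at 0.578, 0.181 and 0.498 CPM in vehicle and at 2.11, 1.99 and 2.03 in recovery. It reached 217, 218 and 222 CPM in acute and 290, 289 and 287 in repeat, with no overlap at the start or the end. Both its start (log2 2.23) and its end (0.40 ± 0.027, SE; edgeR adjusted p = 9.79e-10) were higher, and the interaction was −1.83 ± 0.18 (SE; edgeR adjusted p = 8.15e-07). On log2(TPM + 1) it was −0.46 (limma adjusted p = 0.592). The third synthetase, OAS3, was far more abundant at the start. It was at 40.6, 38.0 and 37.3 CPM in vehicle, 58.1, 59.5 and 56.2 in recovery, 1396, 1379 and 1392 in acute, and 1442, 1376 and 1419 in repeat. Here the start groups did not overlap and the end groups did. The interaction was −0.56 ± 0.039 (SE; edgeR adjusted p = 6.64e-10), with gains of 1350 ± 5.4 and 1354 ± 19 CPM (SE).

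MX2, a GTPase that blocks the nuclear entry of some viruses, had the lowest interaction estimate, −2.61 ± 0.36 (SE; edgeR adjusted p = 0.0151), but on log2(TPM + 1) it was −0.95 and not called (limma adjusted p = 0.0913). It was at 0.508, 0.158 and 0.238 CPM in vehicle, 3.21, 1.82 and 2.15 in recovery, 217, 216 and 225 in acute and 271, 261 and 267 in repeat. Its relative MX1 went from 4.68, 3.05 and 2.92 CPM in vehicle to 7.82, 7.19 and 8.02 in recovery, and ended at 783, 767 and 767 in acute and 792, 799 and 814 in repeat. The MX1 interaction was −1.02 ± 0.145 (SE; edgeR adjusted p = 0.0158), and it was not called without recovery replicate 1 (−1.01, edgeR adjusted p = 0.0645) or without recovery replicate 3 (−0.99, edgeR adjusted p = 0.0621). For both genes neither the start groups nor the end groups overlapped. Vehicle replicate 1 was the highest of its group for both MX genes.

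RSAD2 (viperin, which makes a chain-terminating nucleotide) and its neighbour CMPK2 (a mitochondrial nucleotide kinase) stood apart for their ends. RSAD2 was at 0.420, 0.317 and 0.368 CPM in vehicle, 16.6, 15.1 and 18.0 in acute, 2.53, 1.69 and 2.34 in recovery and 31.1, 30.1 and 31.2 in repeat. Every repeat library was above every acute library. The end was higher by 0.89 ± 0.062 on the log2 scale (SE; edgeR adjusted p = 2.64e-09) and the start by 2.54, so the log2 response was lower by 1.65 ± 0.22 (SE; interaction edgeR adjusted p = 0.000129) while the gain in CPM was 1.76 times that of the first pulse (28.6 against 16.2). CMPK2 rose from 0.298, 0.226 and 0.260 to 21.2, 20.7 and 21.7 CPM in the first pulse and from 1.10, 0.866 and 1.29 to 30.3, 30.3 and 30.7 in the second. Its interaction was −1.51 and its gain 1.40 times the first. For these genes the direction depends on the scale: on log2(TPM + 1), which flattens levels near 0, the interaction estimates were 0.31 for RSAD2 and 0.15 for CMPK2, neither called.

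OASL, which enhances RIG-I signalling, had the largest rise of recovery over vehicle among the 22, taken as a share of the first gain. It was at 52.3, 46.8 and 51.7 CPM in vehicle and 92.6, 92.2 and 101 in recovery. Acute was at 203, 192 and 204, and repeat at 249, 246 and 241. Recovery thus exceeded vehicle by 30.2% of the first gain, a share in which earlier interferon and days in culture cannot be told apart. Both gains were equal within their errors, 149 ± 4.4 and 150 ± 3.7 CPM (SE), around an interaction of −0.63. ISG15, the ubiquitin-like modifier, rose from 47.6, 46.6 and 45.1 to 716, 693 and 715 CPM, and again from 65.2, 67.6 and 68.3 to 702, 742 and 677. Its ends overlapped (end shift near 0, adjusted p = 0.98 in edgeR) and its interaction was −0.53 (edgeR adjusted p = 2.49e-07). OAS2, ISG15 and OASL were the 3 named genes called in all 22 alternative fits.

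The RNA-binding IFIT proteins started higher too. IFIT3 was at 85.3, 78.1 and 82.4 CPM in vehicle and 131, 124 and 136 in recovery, and its acute (534, 503 and 535) and repeat (523, 541 and 543) levels overlapped. The ends of IFIT1 also overlapped, while those of IFIT2 did not (268, 255 and 267 in acute, 283, 281 and 285 in repeat), with an end shift of 0.10 that was not called (edgeR adjusted p = 0.123). The interactions of IFIT1, IFIT2 and IFIT3 were −0.47, −0.47 and −0.64. The HECT-type ligases HERC5 and HERC6, at −0.45 and −0.59, and IFI44, at −0.47, also passed. LY6E, SAMD9, SAMD9L, DDX60, TRIM14, ZNFX1 and ISG20 complete the called antiviral genes, at −0.53 to −0.16. All of them but ISG20 are listed after their values were seen, to complete the count. ISG20 was called in 4 of the 12 fits that left out a library.

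**Figure D3:**
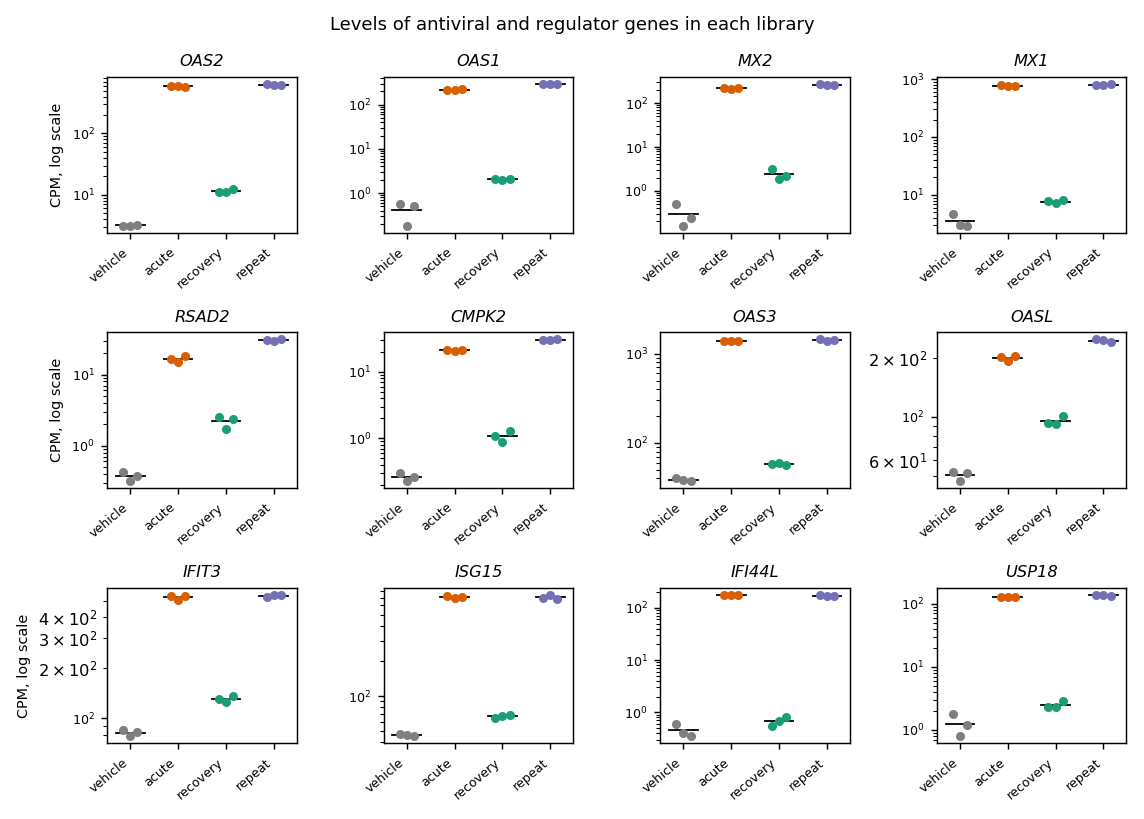
CPM on log axes of 12 genes in every library (points) by group, with group means as bars. OAS2, OAS1, MX2, MX1, RSAD2, CMPK2, OAS3, OASL, IFIT3 and ISG15 had recovery levels above vehicle, and their acute and repeat levels were close except in RSAD2, CMPK2, OAS1, MX2 and OASL; IFI44L and USP18 had no called interaction.

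Measured as gains in CPM, the 2 pulses were alike for most antiviral genes. Among the 22 called lower, the second gain divided by the first had a median of 0.992 (0.848 to 1.76), and 16 lay within 0.1 of 1. Among the 47 not called the median was 0.969, and 43 lay in that range. The rise of recovery over vehicle, as a share of the first gain, had a median of 5.68% in the called genes and 0.318% in the others. These values come from the libraries that made the calls and describe them. When each library was left out in turn, 19 to 24 antiviral genes were called lower, but 10 were with the length offset, 3 on log2(TPM + 1) and 4 on log2(TPM + 0.1).

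**Figure D4:**
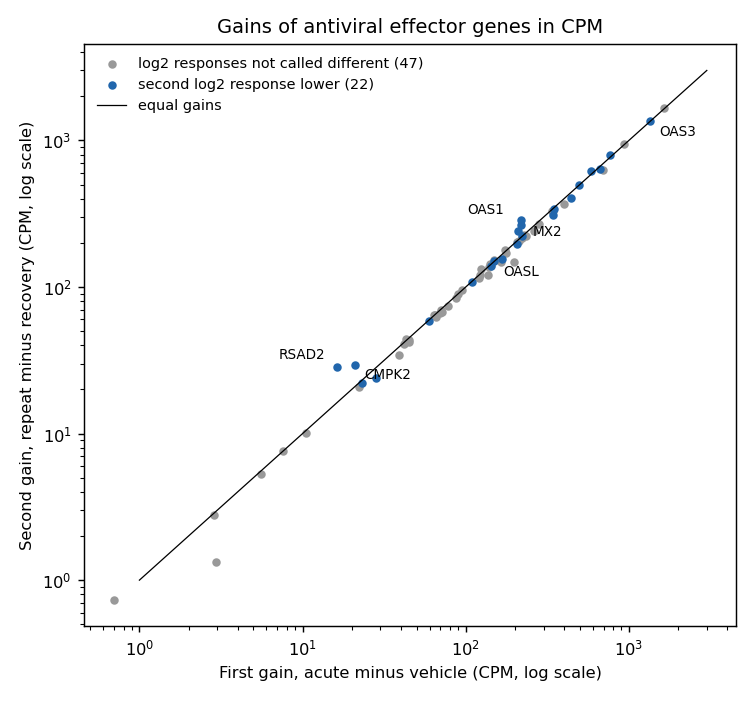
First gain (x axis) and second gain (y axis) in CPM, both on log scales, for the 69 antiviral effector genes; the line marks equal gains and blue marks the 22 genes with a lower second log2 response. Most genes of both colours lie on the line, with RSAD2, CMPK2, OAS1 and MX2 above it.

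A low vehicle level did not by itself go with a call. IFI44L (0.596, 0.407 and 0.346 CPM in vehicle and 0.538, 0.693 and 0.800 in recovery), which reached 178, 175 and 177 CPM in acute and 178, 169 and 167 in repeat, had an interaction of −0.61 ± 0.22 (SE; edgeR adjusted p = 0.285). Its start groups overlapped. BST2 (tetherin, which holds budding virions at the cell surface) and IFI27 were also below 1 CPM in vehicle and were not called (−0.47 ± 0.33 and −0.46 ± 0.29, SE). At such levels the error of the interaction is wide, and a change of the size seen in ISG15 would not have been detectable in these genes.

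Sensors of viral nucleic acid followed the effectors, with which their list shares OAS1, OAS2, OAS3, EIF2AK2 and TRIM25. Of 24 genes 21 were tested, 5 were lower (23.8%, against 0.43% of all genes) and 0 higher, with a median of −0.11. Of the 5, OAS1, OAS2 and OAS3 were already counted among the effectors. RIGI, the RNA helicase that senses 5' triphosphates, was at 34.7, 31.3 and 34.0 CPM in vehicle and 49.8, 45.7 and 51.5 in recovery, with overlapping ends (285, 274 and 291 in acute, 287, 277 and 297 in repeat). Its interaction was −0.54 (edgeR adjusted p = 0.00223). DHX58, a helicase of the same family named here to complete the count of 5, was at −0.36.

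Antigen presentation by MHC class I gave 3 lower genes of 22 tested (13.6%, against 0.43% of all genes), with a median of −0.07. All 22 rose in both pulses (22.3% of all genes in the first and 21.1% in the second). HLA-F, a non-classical class I chain, had higher starts and ends: 3.00, 2.31 and 2.36 CPM in vehicle, 4.48, 5.48 and 4.74 in recovery, 21.6, 20.5 and 23.5 in acute and 28.8, 27.5 and 26.7 in repeat. Its interaction was −0.58 ± 0.12 (SE; edgeR adjusted p = 0.0233), called in 5 of the 12 fits that left out a library, which gave −0.73 to −0.50. TAP2, a subunit of the peptide transporter, was lower by 0.17 and HLA-C by 0.14 in log2 response; HLA-C was called in 4 of those 12 fits and TAP2 in 11 (not without recovery 3, −0.15). Reads of HLA genes can be shared between near-identical family members, so their values are uncertain. Of 24 tested interferon-γ-type genes only APOL6 passed (−0.31).

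The signalling machinery itself had no called interaction apart from PTPN11. None of the 4 receptor and kinase genes and none of the 12 tested STAT and IRF genes passed. STAT2 (−0.04 ± 0.049, SE), IRF9 (0.12 ± 0.051, SE) and IRF7 (−0.16 ± 0.075, SE) were not called, nor were IFNAR1, IFNAR2, JAK1, TYK2, IRF1 or SOCS1. The STAT2 end was lower, by 0.15 on the log2 scale (edgeR adjusted p = 0.010).

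USP18, the protease that removes ISG15 from its targets and blocks IFNAR2 signalling, was at 1.77, 0.792 and 1.19 CPM in vehicle, 2.31, 2.30 and 2.89 in recovery, 127, 126 and 126 in acute and 137, 139 and 133 in repeat. Its start was called higher (log2 0.95, edgeR adjusted p = 0.0123), while the interaction of −0.84 ± 0.20 (SE) missed the threshold (edgeR adjusted p = 0.118). Without vehicle replicate 1 it was −1.22 (edgeR adjusted p = 7.59e-05). USP18 has a near-identical copy, USP41, so its counts are uncertain. PTPN11, the SHP2 phosphatase, was the 1 of 17 tested negative regulators that passed: it fell by 0.52 in the first pulse and by 0.40 in the second on the log2 scale, an interaction of 0.13 called in 2 of 12 fits that left out a library.

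The higher interactions were mostly weaker falls. Of the 40 genes, 23 fell in both pulses, 21 of these from a lowered start, and 11 fell in the first pulse with no call in the second. The list of cholesterol synthesis and uptake genes also holds regulators such as INSIG1. Of 24 tested, 5 (20.8%, against 0.221% of all genes) were higher and 0 lower, with a median of 0.14. In the first pulse 22 fell (21.5% of all genes did) and in the second 20 (20.5%). Their start was called lower in 15 (2.91% of all genes) and higher in 0, and the end higher in 1 and lower in 0. LSS, lanosterol synthase, was at 264, 244 and 249 CPM in vehicle, 146, 138 and 142 in acute, 214, 202 and 209 in recovery and 135, 132 and 132 in repeat. Neither pair of groups overlapped, at the start or at the end. Its fall was 0.83 and then 0.65 on the log2 scale, and its interaction was 0.18 ± 0.040 (SE; edgeR adjusted p = 0.0380), called in 5 of 12 fits that left out a library (0.15 to 0.21).

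HMGCS1, which makes HMG-CoA, also started lower and fell in both pulses, but its ends overlapped. It was at 331, 306 and 310 CPM in vehicle, 208, 197 and 208 in acute, 271, 254 and 262 in recovery and 193, 196 and 202 in repeat (interaction 0.22). MVD, IDI1 and CYP51A1, further enzymes of the pathway, had interactions of 0.23, 0.16 and 0.16. Outside the list, ACAT2, which makes acetoacetyl-CoA, had an interaction of 0.22 ± 0.040 (SE; edgeR adjusted p = 0.00553) and was called in all 12 fits that left out a library. The list's own calls were less firm. Without acute 2, recovery 2 or recovery 3, 0 of the 5 remained; without vehicle 1, acute 3, repeat 2 or repeat 3, 1 was called; without vehicle 2 or acute 1, 3 were. DESeq2, whose adjustment covered fewer genes, called 11, and with TPM or the length offset the count was 0. Among 12 fatty acid synthesis genes only ACSL3, an acyl-CoA synthetase, passed (0.19). The start of 8 of them was lower (2.91% of all genes).

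Matrix genes divided. Of 32 tested, 3 were higher (0.221% of all genes), 1 was lower (0.43%) and the median was near 0. The start was lower in 20 (2.91% of all genes) and the end in 19 (2.43%). LUM (lumican) was at 31.0, 29.1 and 27.8 CPM in vehicle, 15.6, 15.3 and 14.5 in acute, 19.5, 17.1 and 18.9 in recovery and 12.9, 14.5 and 11.9 in repeat. It fell by 0.95 and then by 0.49 on the log2 scale, an interaction of 0.46 ± 0.091 (SE; edgeR adjusted p = 0.0218) called in 6 of 12 fits without a library (0.37 to 0.52). DCN (decorin), also a collagen-binding proteoglycan, had an interaction of 0.33, called in 7 of 12 (0.26 to 0.37). COL5A2, a fibrillar collagen chain, was lower at both the start and the end (interaction 0.12, called in 4 of 12).

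TIMP3, an inhibitor of matrix proteases, went the other way. It rose from 286, 294 and 308 to 369, 375 and 378 CPM in the first pulse. Recovery was at 366, 357 and 381, above vehicle by 92.4% of the first gain, and repeat was at 397, 391 and 404. Its interaction was −0.23 (edgeR adjusted p = 0.00111), called in all 12 fits without a library. LUM and DCN are also 2 of the 9 fibroblast markers, of which 8 had a lower start (2.91% of all genes) and 5 a lower end (2.43%). The markers summed to 2676 to 2766 TPM in vehicle, 2074 to 2200 in acute, 2295 to 2363 in recovery and 1815 to 1918 in repeat. No smooth muscle, pericyte or endothelial marker was called for the interaction, and of 3 tested leukocyte markers CD68, a lysosomal protein, was (−0.24). Fewer cells of a type and less RNA per cell cannot be told apart in these bulk samples, and the part of this shift in the result was not tested.

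Complement C1R and C1S, the proteases of the C1 complex, were the only called genes that rose in both pulses and more so, on the log2 scale, in the second. C1R was at 64.3, 56.5 and 60.7 CPM in vehicle, 47.0, 43.9 and 45.2 in recovery, 150, 152 and 156 in acute and 139, 139 and 137 in repeat. The start was lower by 0.42 and the end by 0.14 (log2), and the interaction was 0.28 ± 0.048 (SE; edgeR adjusted p = 0.00458). Its gains were 92.1 ± 2.8 and 93.3 ± 1.1 CPM (SE). C1S was at 27.0, 25.8 and 27.1 CPM in vehicle, 20.4, 19.5 and 20.6 in recovery, 86.8, 81.0 and 91.7 in acute and 77.8, 81.3 and 81.5 in repeat, with gains of 59.9 ± 3.1 and 60.01 ± 1.2 CPM (SE) and an interaction of 0.29, called in 9 of 12 fits without a library (0.25 to 0.33; not without vehicle 1, recovery 2 or repeat 3). As in OAS3 and OASL, the log2 responses differed and the gains in CPM did not differ beyond their errors.

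**Figure D5:**
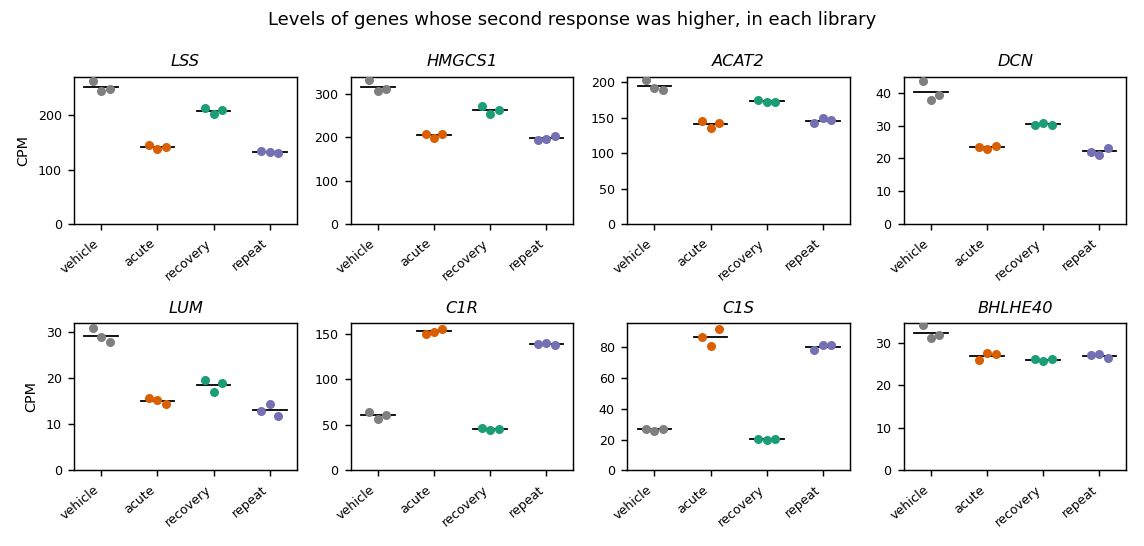
CPM from 0 of 8 genes with a higher second log2 response, in every library (points) by group, with group means as bars. In all 8 genes recovery was below vehicle; LSS, HMGCS1, ACAT2, DCN and LUM fell in both pulses, C1R and C1S rose in both, and BHLHE40 fell in the first only.

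Single genes of other groups were called with small differences. PIM1, a kinase, fell by 0.87 and then by 0.59 (interaction 0.28). BHLHE40, a repressor of transcription, was at 34.1, 31.0 and 31.7 CPM in vehicle and between 25.6 and 27.5 in all 9 other libraries. Its recovery level, with no later pulse, was thus near that of acute (interaction 0.32). Both were called in all 12 fits without a library. VEGFA (0.21), an angiogenic growth factor, PHGDH (0.14), which starts serine synthesis, CADM4 (0.35) and DIO2 (0.39), a deiodinase, were called in 4, 2, 2 and 2 of those fits. LTBP2, the 1 called gene of 22 tested TGF-β and YAP targets, was lower by 0.30, called in 6 of those fits. The naming rule also gave MYO7B (−0.54), TMEM41B (0.25), EFEMP1 (0.22) and PRORP (0.25), none called in more than 4 of the 12 fits.

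The genes in which only the end shift was called had small changes, 0.09 to 0.24 on the log2 scale in size. MYRF, a membrane-bound transcription factor, was at 106, 106 and 110 CPM in vehicle, 99.6, 101 and 99.8 in acute, 106, 102 and 105 in recovery and 87.6, 83.5 and 85.1 in repeat. The repeat level was the one that stood apart, the interaction was −0.19 ± 0.036 (SE; edgeR adjusted p = 0.00878), and all 12 fits without a library called it. ZZEF1, HTT (huntingtin) and WNK4 (a kinase of salt transport) were lower at the end and had interactions of −0.22, −0.19 and −0.25, called in 7, 6 and 5 of 12. Of the 6 genes with neither shift called, SH3RF2 (−0.32), GOLPH3 (0.16), TRANK1 (−0.42) and MYADM (−0.18) were called in 7, 3, 2 and 2.

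In 11 lists no gene was called: receptor and kinases, STAT and IRF factors, inflammatory cytokines, cell death, G1/S, G2/M, mitochondrially encoded mRNAs, heat shock, p53 targets, immediate early genes and lysosome and density arrest. Many of these genes did respond: 26 of 28 G2/M genes fell in the first pulse (21.5% of all genes) and 26 in the second (20.5%), with medians of −0.24 and −0.23. Among inflammatory genes 16 of 21 rose in the first pulse (22.3% of all genes) and 18 in the second (21.1%), with medians of 0.43 and 0.45.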

How the data were processed

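Poly(A) RNA from 12 cultures was made into stranded libraries and sequenced as 75 bp single reads. The authors deposited estimated counts per gene (25.49% of nonzero values were not whole, and all were rounded here) and TPM. Per the submitters' processing notes, Trim Galore 0.6.10, cutadapt 4.3, STAR 2.7.11a, featureCounts 2.0.3, edgeR and Picard 2.27.5 were used with GRCh38.p13; the design text names GENCODE 41 and DESeq2. The strand setting of counting is not given in the sources used here. Symbols came from GENCODE 44 (60507 of 60649 identifiers).

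The main test was 1 edgeR 4.0.16 quasi-likelihood fit (R 4.3.3, TMM scaling, expression filter by group, robust, no covariate) to the 18119 genes kept, tested on simulated data first. The interaction, first, second, start and end contrasts were each adjusted over all genes (0.05), and glmTreat tested a change beyond 1.5-fold. SEs of log2 values are the estimate over the square root of F. Totals of 39941319 to 62281900 counts and a common biological coefficient of variation of 2.67% set the precision. P-values set each contrast against the spread between replicate cultures as estimated by the fit.

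Named genes were the 15 highest and 15 lowest called (5 CPM in a group), the 4 of smallest p per class and list, and a set panel of interferon genes. The members and lists were chosen with earlier results of these data known. Alternatives used DESeq2 1.42.0, limma 3.58.1 (voom, and log2 TPM with pseudocounts 1 and 0.1), other scalings, other filters, a length offset, a replicate block, and each library left out. Promoter windows came from RefSeq, GRCh38.p14, and 50 of 70 named genes had one. Some genes of the lists are not reported here singly.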

Additional observations from a re-analysis of the deposited data

Results flagged for a closer look

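The second response differed from the first, by the interaction test over the same libraries, in 118 genes. Among those named in the report, the antiviral and sensing genes with a lower second response were MX2 (−2.61 on the log2 scale, as for all values here), OAS1 (−1.83), OAS2 (−1.77), RSAD2 (−1.65), CMPK2 (−1.51), MX1 (−1.02), IFIT3 (−0.64), OASL (−0.63), HERC6 (−0.59), OAS3 (−0.56), RIGI (−0.54), ISG15 (−0.53), ISG20 (−0.53), IFIT2 (−0.47), IFI44 (−0.47), IFIT1 (−0.47) and HERC5 (−0.45). Antigen presentation and interferon-γ-type genes were HLA-F (−0.58), APOL6 (−0.31), TAP2 (−0.17) and HLA-C (−0.14).

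Other genes with a lower second response were MYO7B (−0.54), TRANK1 (−0.42), SH3RF2 (−0.32), LTBP2 (−0.30), WNK4 (−0.25), TIMP3 (−0.23), ZZEF1 (−0.22), MYRF (−0.19), HTT (−0.19) and MYADM (−0.18).

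Among genes with a higher second response, those of lipid synthesis were IDI1 (0.16), CYP51A1 (0.16), LSS (0.18), ACSL3 (0.19), HMGCS1 (0.22), ACAT2 (0.22) and MVD (0.23). Matrix and complement genes were COL5A2 (0.12), EFEMP1 (0.22), C1R (0.28), C1S (0.29), DCN (0.33) and LUM (0.46). The rest were PTPN11 (0.13), PHGDH (0.14), GOLPH3 (0.16), VEGFA (0.21), PRORP (0.25), TMEM41B (0.25), PIM1 (0.28), BHLHE40 (0.32), CADM4 (0.35) and DIO2 (0.39).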

How the results depend on the processing

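Of the 54 named genes called, 22 kept the call in every fit that left out 1 library and 3 in all 22 alternatives. Those fits gave 56 to 323 interaction calls (13 to 90 higher, 40 to 233 lower, 2 to 6 beyond 1.5-fold), 624 to 1167 start calls and 337 to 1218 end calls; the highest interaction and end counts came without repeat replicate 1. DESeq2 called 235 (75 higher, 160 lower), of which 72 were among the 118. It gave no adjusted p to 15105 of 18119 genes, 46 of the 118 among them, so its adjustment covered fewer genes. With no filter 333 were called (137 and 196, with 17 beyond 1.5-fold). Voom gave 101 calls, with 1 beyond 1.5-fold. On log2(TPM + 1) there were 3 calls (0 higher, 3 lower, 0 beyond 1.5-fold), with 118 for the start, 6 for the end, 4344 for the first and 3824 for the second pulse. On log2(TPM + 0.1) they were 5 (0 and 5), 125, 9, 4329 and 3830, and with the length offset 11 (0 and 11), 181, 10, 4443 and 3979. RSAD2 (0.31), CMPK2 (0.15) and TRANK1 (0.14) turned positive on log2(TPM + 1), and TRANK1 (0.034) on log2(TPM + 0.1), none called. The cause of these differences was not tested. Signs of uncalled named genes changed in 9 of 352 fits. The 118 genes kept their sign in every count fit without the length offset, and 116, 113 and 115 did with that offset, log2(TPM + 1) and log2(TPM + 0.1). The replicate block gave 160 calls, 117 shared. Same-numbered libraries correlated at −0.08 to 0.08 in their deviations. Vehicle with acute gave 0.057, 0.076 and 0.055 for equal numbers, and vehicle with repeat 0.025, 0.043 and 0.055, while their unequal pairs were all negative. Vehicle with recovery gave −0.010, −0.050 and −0.018 for equal numbers. Not every library correlated best with its own number, so the numbers were not taken as pairs in the main fit. The labels do not state whether equal numbers mark a shared culture. Among the named genes the SE was largest for MX2 and BST2 (0.36 and 0.33), both under 1 CPM in vehicle.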
